A study of Mus musculus with 26 samples.

Results

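Transcripts of 8 surface receptors of mature B cells were followed through the series: Cr2, Fcer2a, Cd40, Cd83, Ms4a1, Cd22, Cd72 and Cd69. They were chosen by name, as 8 of the 23762 rows of the RNA-seq count table, and 8 of 8 were among the 14862 genes that passed the filter on low counts. The series concerns CXCR4, through which cells sense the chemokine CXCL12, in Igk recombination and the last steps of mouse B cell development, and RNA-seq covered 18 libraries in 9 groups of 2. The first groups were flow-sorted small pre-B cells labelled CXCR4-/- and wild-type small pre-B cells. The second groups were cultures of CXCR4-/- small pre-B cells without IL-7, either with CXCL12 or with neither factor. The remaining 5 groups were cultures labelled as pre-B cells with no genotype given, called CXCR4-sufficient here. They had been kept with CXCL12 plus ERK inhibitor II in the absence of IL-7, with IL-7 and CXCL12, without IL-7 with CXCL12, without IL-7, and with IL-7. One of the 2 libraries without IL-7 was titled small pre-B, and one with CXCL12 carried that name in the count table alone. The sources used here do not state strain, age, time in culture, doses, the deleted part of Cxcr4 or any Cre driver. Whether replicate libraries stem from different animals or cultures is not labelled either, and p-values reflect library-to-library spread that could be technical. The exception is the sorted CXCR4-/- pair, whose sex-linked transcripts, given below, differ too widely for repeats of the same sample.

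The receptors are best known from mature B cells, whereas a small pre-B cell still has no complete antigen receptor. Cr2 encodes the complement receptors CD21 and CD35 of the mouse, and CD21 is part of the coreceptor of the B cell antigen receptor. Fcer2a encodes CD23, the low-affinity receptor for IgE. Cd40 encodes the receptor for the CD40 ligand of helper T cells, a member of the TNF receptor family that signals through TRAF adaptors to NF-kB. Cd83 encodes an activation marker of B cells and dendritic cells that stabilises MHC class II at the surface. Ms4a1 encodes CD20. Cd22 and Cd72 encode inhibitory receptors whose cytoplasmic tails recruit the phosphatase SHP-1, the product of Ptpn6. Cd69 encodes an early activation marker that holds lymphocytes in tissue by removing the sphingosine 1-phosphate receptor S1PR1 from the surface.

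Promoter sequences are shown because the members move together in part, and because several B-lineage factors read short motifs of this kind. The RefSeq (GRCm38.p6) promoters available here covered 4 of the 8 genes. The 250 bases before the first listed start are printed below. Each window runs 5′ to 3′ on the strand of its gene, which is the minus strand for each. They lie at chr1:195176720-195176969 (Cr2), chr4:43454627-43454876 (Cd72), chr7:30879029-30879278 (Cd22) and chr8:3694175-3694424 (Fcer2a). Capitals mark matches, on either strand, to the E-box CANNTG, the PU.1 core GAGGAA, the kB motif (GGGA and TTCC with 2 bases of any kind between them) and the octamer ATGCAAAT.
Cr2: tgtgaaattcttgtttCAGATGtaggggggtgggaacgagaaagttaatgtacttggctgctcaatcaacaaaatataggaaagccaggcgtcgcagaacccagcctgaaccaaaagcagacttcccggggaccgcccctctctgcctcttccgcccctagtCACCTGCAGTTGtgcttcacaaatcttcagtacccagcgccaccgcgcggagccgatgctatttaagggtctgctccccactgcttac
Fcer2a: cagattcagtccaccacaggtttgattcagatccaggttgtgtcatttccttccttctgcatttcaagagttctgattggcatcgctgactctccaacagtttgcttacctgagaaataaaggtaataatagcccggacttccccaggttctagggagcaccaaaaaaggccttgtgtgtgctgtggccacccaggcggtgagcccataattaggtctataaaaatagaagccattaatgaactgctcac
Cd22: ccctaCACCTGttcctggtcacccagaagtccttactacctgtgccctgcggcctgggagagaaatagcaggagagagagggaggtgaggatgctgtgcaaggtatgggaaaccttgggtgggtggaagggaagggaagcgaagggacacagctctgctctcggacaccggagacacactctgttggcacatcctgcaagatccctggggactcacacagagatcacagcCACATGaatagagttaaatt
Cd72: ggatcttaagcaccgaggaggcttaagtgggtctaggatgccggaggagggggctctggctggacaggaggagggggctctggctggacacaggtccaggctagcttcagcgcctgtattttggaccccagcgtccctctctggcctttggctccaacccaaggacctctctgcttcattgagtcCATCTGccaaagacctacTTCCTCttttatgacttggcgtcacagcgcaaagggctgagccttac
The Cr2 window held 3 E-boxes, of which 2 abut without overlap, the Cd22 window held 2, the Cd72 window held 1 with 1 PU.1 core, and the Fcer2a window held none of the 4 motifs. RefSeq lists 2 further starts for Fcer2a, and the window of one of them, not printed, held 4 E-boxes and that of the other none of the motifs. No window of the 4 genes held the kB motif or the octamer. Of the 32851 RefSeq windows of this length available here, 66.2% held an E-box, 23.3% the PU.1 core, 1.21% the kB motif and 1.60% the octamer. A match is a description of these letters and no evidence of a bound site. Promoters of Cd83, Cd40, Ms4a1 and Cd69 were not analysed here.

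Total counts per library lay between 17257914 and 50235192. Levels are CPM, counts scaled to the TMM-adjusted library total, so they compare 1 gene between libraries and not genes of different length. The B-lineage gene Cd79a was high in every library, at 465 to 1317 CPM. Cxcr4, which checks the labels, was at 37.2 and 409 CPM in sorted CXCR4-/- libraries, against 943 and 922 CPM in sorted wild-type cells, so replicate 2 goes against its label in part. Cultured CXCR4-/- cells had 133 to 137 CPM of Cxcr4 with CXCL12 and 114 to 130 CPM in its absence, against 226 to 237 CPM in CXCR4-sufficient cultures without IL-7 with CXCL12, 169 to 171 CPM without IL-7 and 112 to 113 CPM with IL-7. The transcript was thus present in every culture labelled CXCR4-/-, at or above its level with IL-7. With the deleted part unknown, CXCR4-/- stands below for the label and not for a measured absence, and each direction by genotype rests on it. The cultures also fell into sets that stood apart by genes the labels do not name. Gapdh was at 1399 to 1730 CPM with IL-7 and CXCL12 and with the ERK inhibitor, and at 12.3 CPM or less in the other 14 libraries. These 4 libraries are called the Gapdh-high set. Xist, the X-inactivation transcript of female cells, was at 1251 to 1519.7 CPM in this set and at 0.371 to 1.54 CPM in the other cultures, and the Y-linked Ddx3y at 6.83 to 7.74 against 103 to 148 CPM, so the sets also differed in these sex-linked transcripts. The CXCR4-/- cultures formed a set with next to no stromal and myeloid transcripts. Differences between sets, these transcripts included, cannot be told apart from genotype or medium.

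**Figure D1:**
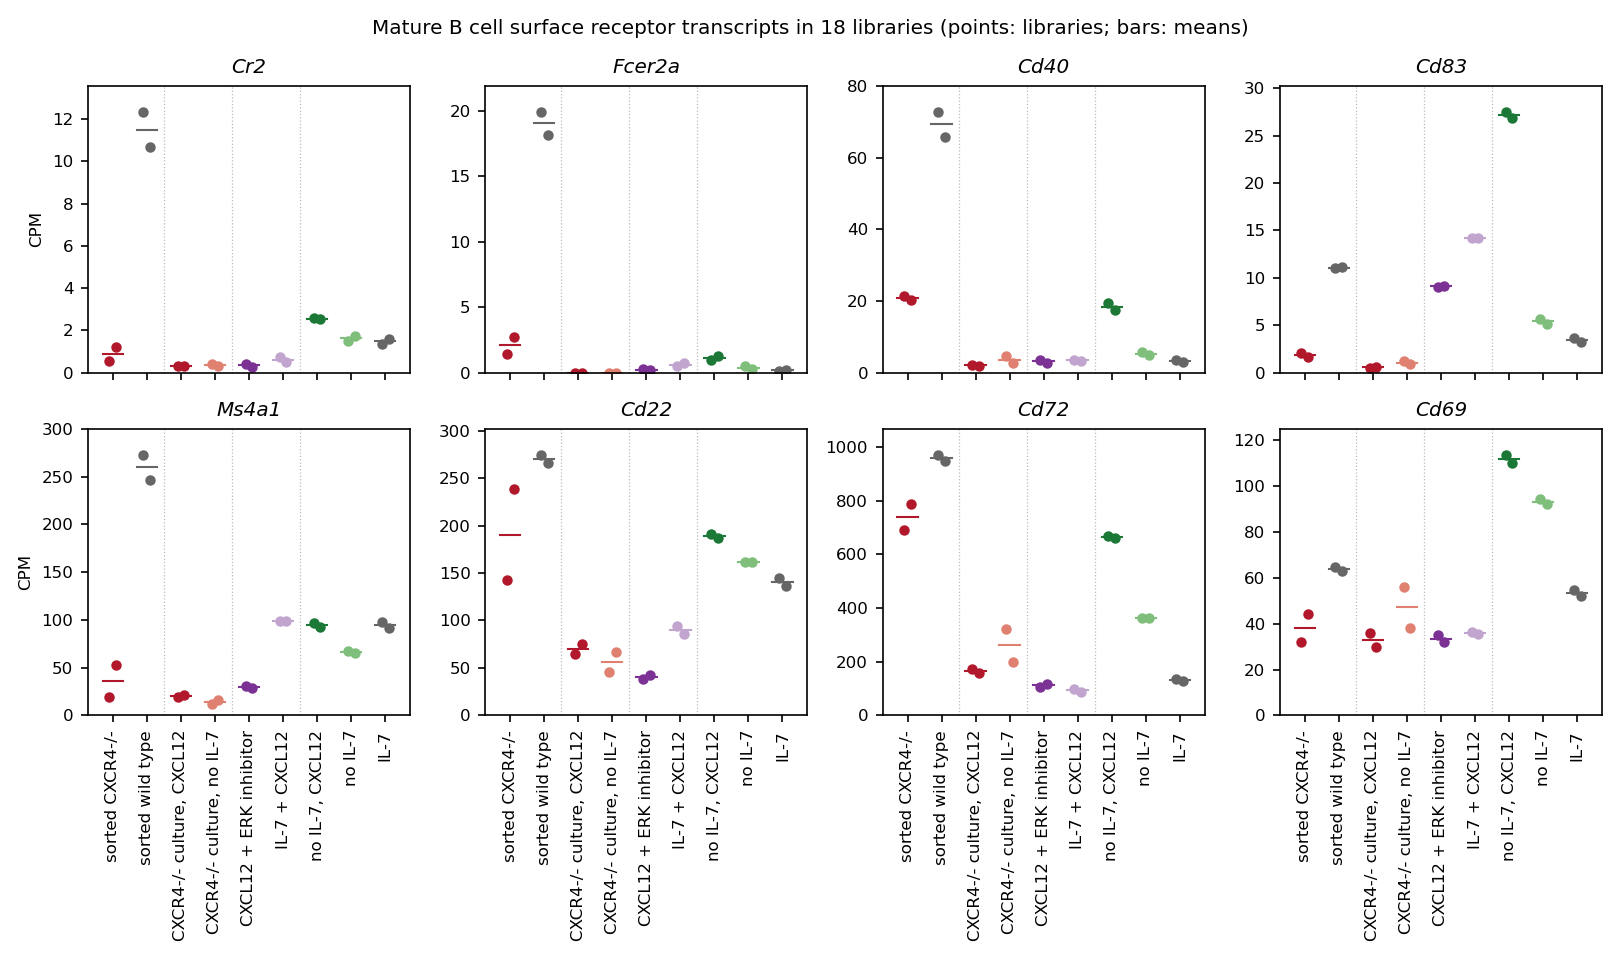
Level of each receptor transcript in CPM on the vertical axis, from 0, for the 2 libraries of each of 9 groups, with points for libraries and bars for means; dotted lines separate the sorted cells, the CXCR4-/- cultures, the Gapdh-high set and the other cultures. Sorted wild-type cells stand highest for Cr2, Fcer2a, Cd40, Ms4a1, Cd22 and Cd72, and cultures without IL-7 with CXCL12 stand highest for Cd83 and Cd69.

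Across the 9 groups, 6 of the 8 receptors were highest in sorted wild-type small pre-B cells. Mean levels there were 11.5 CPM for Cr2, 19.0 for Fcer2a, 69.3 for Cd40, 260.0 for Ms4a1, 270.2 for Cd22 and 959 for Cd72. In none of these did the sorted wild-type range overlap the next group. The share of all genes tested with this order was not counted, so it cannot be called particular to the receptors. Against cultures without IL-7 with CXCL12, 23.8% of all genes tested were called higher in sorted wild-type cells. Cd83 and Cd69 were instead highest without IL-7 with CXCL12, at 27.2 ± 0.439 and 112 ± 2.41 CPM (SD, n = 2). CXCR4-/- cultures with CXCL12 were lowest for Cr2, Cd40, Cd83 and Cd69, and Fcer2a had 0 counts in all 4 CXCR4-/- culture libraries. Cd83 spanned 47.5-fold between its highest and lowest group mean, with no overlap between any neighbours in the order. Cr2 spanned 37.3-fold and Cd40 34.4-fold, but their lower groups ran together. The last 3 groups of Cr2 overlapped, from 0.285 to 0.413 CPM, and so did 4 groups of Cd40, from 2.56 to 4.75 CPM. Cd69 varied least, 3.41-fold, and 4 pairs of neighbours in its order overlapped.

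Setting sorted CXCR4-/- small pre-B cells against sorted wild-type ones asks how the receptors differ with CXCR4 in cells taken from the animal. The complement, IgE and CD40 receptors, Cd83, Ms4a1 and Cd69 fell in the cells labelled CXCR4-/-, and the inhibitory receptors Cd22 and Cd72 were lower without passing the test. Of the 8 receptors 0 rose and 6 fell, where 34.2% of all genes tested passed the test, 16.6% higher and 17.6% lower. The median log2 change of the 8 was -2.15, against -0.01 over all genes tested. In bulk RNA, fewer cells that carry a transcript and less of it per cell cannot be told apart. The sorted libraries also differed in sex-linked transcripts. CXCR4-/- replicate 1 had 31.5 CPM of Xist and 87.9 CPM of Ddx3y and replicate 2 had 2078 and 0.0725 CPM, against 410.5 to 474 CPM of Xist and 124 to 139 CPM of Ddx3y in wild type. Their part in the receptor differences was not tested beyond leaving each library out.

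Cr2 stood at 0.545 and 1.20 CPM in CXCR4-/- cells, against 12.3 and 10.7 CPM in wild type. The groups lay far apart, and its log2 change of -3.74 ± 0.32 was the largest of the 8 (edgeR's quasi-likelihood test, adjusted p = 3.1e-06). Fcer2a was at 1.45 and 2.72 CPM in CXCR4-/- against 19.9 and 18.2 CPM in wild type, a log2 change of -3.20 ± 0.34 (adjusted p = 5.7e-05). Both encode receptors that decorate the surface of follicular B cells, and both were lower in each CXCR4-/- library than in either wild-type one. Cd40 was at 21.4 and 20.3 CPM against 72.7 and 65.8 CPM in wild type (log2 change -1.73 ± 0.21, adjusted p = 4.9e-05). Cd83 was at 2.03 and 1.70 CPM against 11.0 and 11.1 CPM in wild type (log2 change -2.56 ± 0.15, adjusted p = 1e-07). These activation receptors differed little between the replicates of either group. Ms4a1, the transcript of CD20, had 19.0 and 53.0 CPM in CXCR4-/- against 273 and 247 CPM in wild type (log2 change -2.86 ± 0.33, adjusted p = 4.2e-05). The libraries labelled CXCR4-/- differed from each other in Ms4a1, and both lay well below wild type.

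The inhibitory receptors gave smaller differences. Cd22 had 143 and 238 CPM in CXCR4-/- against 275 and 266 CPM in wild type (log2 change -0.50 ± 0.21, adjusted p = 0.08). Cd72 had 691 and 787 CPM against 972 and 947 CPM in wild type (log2 change -0.38 ± 0.17, adjusted p = 0.11). Their groups did not overlap, yet neither passed the threshold of 0.05. Cd69 was at 32.2 and 44.0 CPM in CXCR4-/- against 64.7 and 62.8 CPM in wild type (log2 change -0.74 ± 0.17, adjusted p = 0.0053). Without replicate 2 labelled CXCR4-/-, which kept much of its Cxcr4, the log2 changes were -3.78 for Ms4a1, -4.39 for Cr2 and -0.92 for Cd22, which then passed (adjusted p = 0.0037), and without replicate 1 they were -2.31, -3.28 and -0.19. The Ms4a1 call ended when the sorted libraries were fitted alone (adjusted p = 0.076), while Cd22 passed with RLE scaling and DESeq2 (adjusted p = 0.043 and 0.026) and Cd72 with the sorted libraries alone (adjusted p = 0.022).

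Other genes of these pathways were counted by lists that were chosen with earlier results of these data known and that share 5 genes. Of 20 genes of activation and costimulation 0 rose and 12 fell in CXCR4-/- cells, with a median log2 change of -0.53. Cd84, an adhesion receptor of the SLAM family, was at 35.4 ± 1.68 CPM against 126 ± 3.74 CPM in wild type (log2 change -1.83), and Cd86, a ligand of the T cell receptor CD28, was at 2.55 ± 0.603 against 8.48 ± 1.38 CPM in wild type (-1.74). Of 21 other surface genes of mature B cells 2 rose and 11 fell (median -0.52), among them Faim3, the IgM Fc receptor (-2.72), H2-Ob of the MHC class II editor H2-O (-1.36) and Cd55, which limits complement (-1.05). Inhibitory receptors and phosphatases gave 1 higher and 9 lower of 16 (median -0.57), and CD40 and NF-kB signalling genes 0 higher and 7 lower of 20 (median -0.34). The NF-kB genes that fell included Birc3 (-0.67), a ubiquitin ligase recruited by TRAF2, and Tnfaip3 (-0.77), a feedback inhibitor of NF-kB. Antigen receptor and coreceptor signalling genes gave 1 higher and 9 lower of 20 (median -0.25). The adaptor Bank1 fell by 2.26 on the log2 scale.

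Other cell types and stages were read from their markers in the same libraries. Pro-B and progenitor markers gave 9 higher and 2 lower of 14, with a median log2 change of 1.13. Their sum went the other way, at 4637 to 5568 CPM in CXCR4-/- against 5721 to 6119 CPM in wild type. Rag1, which is also in the list of small pre-B markers, weighs most in this sum. It was at 1526 to 1752 CPM in CXCR4-/- against 3232 to 3571 CPM in wild type. Dendritic cell markers gave 0 higher and 8 lower of 12, at 277 to 292 CPM against 387 to 397 CPM in wild type. NK cell markers gave 0 higher and 5 lower of 9, with sums of 13.4 to 29.9 CPM against 38.1 to 41.5 CPM in wild type. Higher and lower counts were 1 and 4 of 9 for plasma cells, 1 and 4 of 11 for T cells, 3 and 1 of 18 for myeloid cells, 0 and 1 of 11 for stromal and follicular dendritic cells, 0 and 2 of 10 for RNA quality and stress genes, and 1 and 4 of 10 for B-lineage and small pre-B markers. The myeloid sum ran from 1316 to 7665 CPM between the libraries labelled CXCR4-/- and from 6088 to 6121 CPM in wild type, and the stromal sum from 10.1 to 26.2 against 40.4 to 41.6 CPM in wild type. The part of these cells in the receptor differences was not tested.

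**Figure D2:**
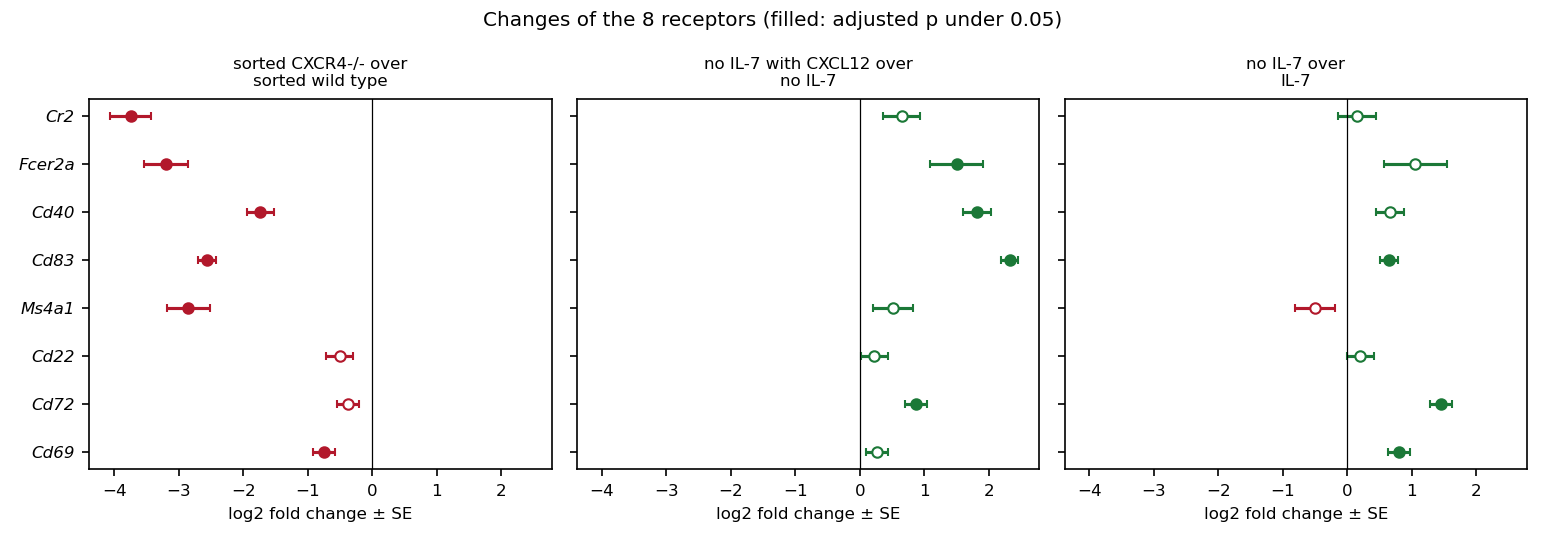
Log2 fold change ± SE of each receptor in 3 comparisons, with filled symbols at an adjusted p under 0.05. Filled symbols lie left of 0 in the sorted cells for 6 receptors, right of 0 with CXCL12 for Cd83, Cd40, Fcer2a and Cd72, and right of 0 after IL-7 withdrawal for Cd72, Cd69 and Cd83.

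Cultures without IL-7 were set against cultures with IL-7 to see which receptors change when the growth factor of B cell progenitors is taken away. Cd72, Cd69 and Cd83 rose and no receptor fell, 3 of 8 where 11.8% of all genes tested passed the test, 5.60% higher and 6.23% lower. The median log2 change of the 8 was 0.65, against 0.05 over all genes. Cd72 was at 363 and 363 CPM without IL-7 against 137 and 128 CPM with it (log2 change 1.46 ± 0.17, adjusted p = 0.00023). The inhibitory receptor thus changed more than any other member, and it was the one call that held with any single library left out. Cd69 was at 94.3 and 92.3 CPM without IL-7 against 54.9 and 52.0 CPM with it (log2 change 0.80 ± 0.17, adjusted p = 0.0097). Cd83 was at 5.65 and 5.18 CPM without IL-7 against 3.67 and 3.26 CPM with it (log2 change 0.64 ± 0.13, adjusted p = 0.0082). Neither pair of groups overlapped, but the Cd69 call ended without any 1 of the 4 libraries and the Cd83 call without replicate 2 with IL-7 or replicate 1 without it.

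The other 5 receptors did not pass. Cd40 was at 5.65 and 4.81 CPM without IL-7 against 3.58 and 3.06 CPM with it (log2 change 0.66 ± 0.22, adjusted p = 0.072). Fcer2a was low, with 34 counts after IL-7 withdrawal and 17 in its presence, at 0.477 and 0.293 CPM against 0.132 and 0.237 CPM with IL-7 (log2 change 1.05 ± 0.49, adjusted p = 0.22). Ms4a1 was at 67.8 and 65.1 CPM without IL-7 against 97.9 and 91.1 CPM with it, the one member whose estimate was negative (-0.51 ± 0.31). Cr2 changed by 0.14 ± 0.29 and Cd22 by 0.20 ± 0.21 on the log2 scale. For the other fits named next the share of all genes called is not given here, so their counts describe the 8 receptors alone. With these 4 libraries fitted alone 6 of the 8 receptors passed, of which 5 were higher and Ms4a1 was lower (-0.54, adjusted p = 2e-05), and with close pairs of libraries summed to 1 only Cd72 did so among the 8.

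Of 20 CD40 and NF-kB signalling genes 5 rose and 0 fell after IL-7 withdrawal. Relb and Nfkb2, which encode the subunits of the non-canonical NF-kB dimer that CD40 can activate, changed by 0.96 and 0.58 on the log2 scale, and the inhibitors Nfkbia and Nfkbie by 0.83 and 0.67. Inhibitory receptors and phosphatases gave 4 higher and 0 lower of 16, with Pecam1, an adhesion receptor with inhibitory motifs, at 0.81. Antigen receptor signalling genes gave 3 higher and 2 lower of 20, activation and costimulation genes 3 and 1 of 20, and other mature B cell surface genes 4 and 1 of 21. Cxcr5, the receptor that guides B cells to follicles, fell by 0.98. Myeloid and stromal markers gave 0 calls in either direction, while their sums were 320 to 322 CPM without IL-7 against 180 to 236 CPM with it, and 898 to 915 against 368 to 689 CPM with it.

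CXCL12 was added to cultures without IL-7 to engage CXCR4 itself. The activation receptors Cd83 and Cd40 rose most, with Fcer2a and Cd72, and no receptor fell. That was 4 higher and 0 lower of 8, where 30.6% of all genes tested passed the test, 17.3% higher and 13.2% lower. The median log2 change of the 8 was 0.76, against 0.09 over all genes. Cd83 had 27.5 and 26.9 CPM with CXCL12 against 5.65 and 5.18 CPM without it (log2 change 2.33 ± 0.13, adjusted p = 1.8e-07). Cd40 had 19.5 and 17.4 CPM with CXCL12 against 5.65 and 4.81 CPM without it (log2 change 1.82 ± 0.21, adjusted p = 5.7e-05). Both stood clear of the cultures without CXCL12 in each library, and both calls held with any single library left out. Cd72 had 669 and 660 CPM with CXCL12 against 363 and 363 CPM without it (log2 change 0.87 ± 0.17, adjusted p = 0.0023). Fcer2a had 0.998 and 1.27 CPM with CXCL12 against 0.477 and 0.293 CPM without it (log2 change 1.50 ± 0.41, adjusted p = 0.021). The rise of Fcer2a rests on 68 counts with CXCL12 and 34 counts without it. Its call ended without replicate 2 without CXCL12 and without either CXCL12 replicate (adjusted p = 0.066 to 0.14).

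The remaining receptors were higher with CXCL12 in both libraries without passing the test. Cr2 had 2.60 and 2.53 CPM with CXCL12 against 1.52 and 1.76 CPM without it (log2 change 0.65 ± 0.29, adjusted p = 0.11). Ms4a1 had 96.7 and 92.3 CPM against 67.8 and 65.1 CPM without CXCL12 (0.51 ± 0.31), and Cd69 had 114 and 110 CPM against 94.3 and 92.3 CPM without it (0.26 ± 0.17). Cd22 had 191 and 187 CPM against 162 and 161 CPM without CXCL12 (0.23 ± 0.21). For the other fits named next the share of all genes called is not given here, so their counts describe these 8 receptors alone. The replicates of these 2 media differed by little more than sampling noise, and fitted alone they gave calls for 8 of 8 receptors, whereas with the close pairs summed to 1 library the calls left were Cd83 and Cd40.

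Genes of the pathway that CD40 signals through rose as well. Of 20 CD40 and NF-kB signalling genes 10 rose and 0 fell with CXCL12, with a median log2 change of 0.71. Relb had 90.7 ± 1.12 CPM against 25.7 ± 1.46 CPM without CXCL12 (log2 change 1.82), and Nfkb2 had 167 ± 1.97 against 53.8 ± 0.789 CPM (1.63). Nfkbie and Birc3 changed by 1.50 and 1.25. Of 16 inhibitory receptors and phosphatases 7 rose and 2 fell. Siglecg, a sialic acid receptor related to CD22, and Fcrl1, an Fc receptor-like protein, rose by 0.60 and 0.93, and the phosphatase gene Ptpn22 fell by 0.78. Activation and costimulation genes gave 7 higher and 2 lower of 20, with the cytokine receptors Il21r (1.62) and Il4ra (0.73) among them. S1pr1, whose product CD69 removes from the surface, rose by 0.94 although Cd69 did not pass. Other mature B cell surface genes gave 5 higher and 1 lower of 21. Ighd, the IgD heavy chain, and Ccr7 rose by 1.03 and 0.90, and Cxcr5 went the other way, with 27.1 ± 1.35 CPM against 72.2 ± 1.24 CPM without CXCL12 (-1.42). Antigen receptor and coreceptor signalling genes were split, 5 higher and 4 lower of 20.

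Markers of several other cell types were higher with CXCL12 as well, and those of T cells and of progenitors more often lower. Stromal and follicular dendritic cell markers gave 5 higher and 0 lower of 11, and their sum was 2044 to 2058 CPM with CXCL12 against 898 to 915 CPM without it. Each medium had 2 of the 13 measured markers at 0, Cxcl13 among them. Dendritic cell markers gave 4 and 0 of 12, with sums of 429 to 431 CPM against 323 to 326 CPM without CXCL12. Their list includes Ccr7, which was also counted above among surface genes of mature B cells. Myeloid markers gave 2 and 0 of 18, with sums of 800 to 806 against 320 to 322 CPM without CXCL12. Stress genes gave 6 and 1 of 10, with sums of 758 to 780 against 349 to 352 CPM without CXCL12. Plasma cell markers gave 2 and 0 of 9, and B-lineage and small pre-B markers 4 and 0 of 10. T cell markers gave 1 and 4 of 11, with sums of 50.8 to 51.4 against 127 to 130.5 CPM without CXCL12. Other genes than Cd3e, Cd8a and Cd4 made up most of these sums. Cd3e was at 0.055 to 0.089 CPM with CXCL12 against 0.049 to 0.13 CPM without it. Cd8a was at 0.165 to 0.177 against 0.108 to 0.171 CPM, and Cd4 at 0.909 to 1.05 against 0.366 to 0.671 CPM without CXCL12. Pro-B and progenitor markers gave 2 and 5 of 14, and NK cell markers 0 and 0 of 9. Cd83 and Cd40 are also expressed by dendritic cells, and the part of such cells in these differences was not tested.

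Set against cultures with IL-7, cultures without IL-7 with CXCL12 combine both changes of medium, and this comparison shares its libraries with those above. Cd83 (2.97 ± 0.14), Cd40 (2.47 ± 0.22), Cd72 (2.33 ± 0.18), Fcer2a (2.56 ± 0.46), Cd69 (1.07 ± 0.17) and Cr2 (0.79 ± 0.29) rose on the log2 scale, 6 of 8 where 51.3% of all genes tested passed the test, 29.8% higher and 21.5% lower. The adjusted p of Cr2 was 0.039, and its call ended without any 1 of the 4 libraries. Cd22 (0.43 ± 0.21, adjusted p = 0.1) did not pass. Ms4a1 had 96.7 and 92.3 CPM without IL-7 with CXCL12 and 97.9 and 91.1 CPM with IL-7, and these ranges overlapped (0.00 ± 0.31). Myeloid markers gave 16 higher and 0 lower of 18, stromal markers 9 and 0 of 11, dendritic cell markers 4 and 0 of 12 and stress genes 9 and 1 of 10, and their part in the receptor differences was not tested.

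Cultures labelled CXCR4-/- and kept without IL-7 were given CXCL12 as well. No receptor rose. Cd83 had 0.542 and 0.602 CPM with CXCL12 against 1.20 and 0.922 CPM without it (log2 change -0.90 ± 0.21, adjusted p = 0.035). Cd40 had 2.17 and 1.86 CPM with CXCL12 against 4.75 and 2.56 CPM without it (-0.87 ± 0.25, adjusted p = 0.025). These receptors, which rose most with CXCL12 in the CXCR4-sufficient cultures, were lower with it here. Cd72 had 171 and 158 CPM with CXCL12 against 323 and 199 CPM without it (-0.66 ± 0.17, adjusted p = 0.022), and Cd69 had 36.0 and 29.7 CPM against 56.2 and 38.3 CPM without it (-0.53 ± 0.17, adjusted p = 0.037). That was 0 higher and 4 lower of 8, where 33.8% of all genes tested passed the test, 12.8% higher and 21.0% lower. All 4 calls ended without replicate 1 of the CXCR4-/- cultures without CXCL12, without either CXCL12 replicate, without the Gapdh-high set and with these cultures fitted alone.

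Whether CXCL12 acted differently by genotype was tested as the difference of its effects, CXCR4-/- minus CXCR4-sufficient cultures. Cd83 differed by -3.23 ± 0.25 on the log2 scale (-0.90 in CXCR4-/- against 2.33 in CXCR4-sufficient cultures, adjusted p = 3.9e-06). Cd40 differed by -2.69 ± 0.33 (-0.87 against 1.82 in CXCR4-sufficient cultures, adjusted p = 0.00014). Cd72 differed by -1.54 ± 0.24 (-0.66 against 0.87 in CXCR4-sufficient cultures, adjusted p = 0.00082) and Cd69 by -0.79 ± 0.24 (-0.53 against 0.26 in CXCR4-sufficient cultures, adjusted p = 0.033). The estimated effects of Cd83, Cd40 and Cd72 thus had opposite signs by genotype. With any single library left out the differences were -3.38 to -2.91 for Cd83, -3.05 to -2.06 for Cd40 and -1.84 to -1.03 for Cd72. The negative sign in CXCR4-/- cultures is less certain, because the calls there were lost in several settings, as given above. Cd83 in CXCR4-/- cultures had 12 and 12 counts with CXCL12 against 29 and 18 without it. The differences of Cr2 (-0.88 ± 0.59), Ms4a1 (0.04 ± 0.45) and Cd22 (0.09 ± 0.29) did not pass. Fcer2a gives no estimate, because both CXCR4-/- groups were at 0. Of the 8 receptors 0 were called higher and 4 lower, where 25.2% of all genes tested passed the test, 12.1% higher and 13.1% lower. The Cd69 call ended without replicate 1 of the CXCR4-/- cultures without CXCL12 (-0.38, adjusted p = 0.14), without replicate 2 with it (adjusted p = 0.14) and without any 1 CXCR4-sufficient library. Without that same replicate 1 the differences were -2.06 for Cd40 and -1.03 for Cd72.

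**Figure D3:**
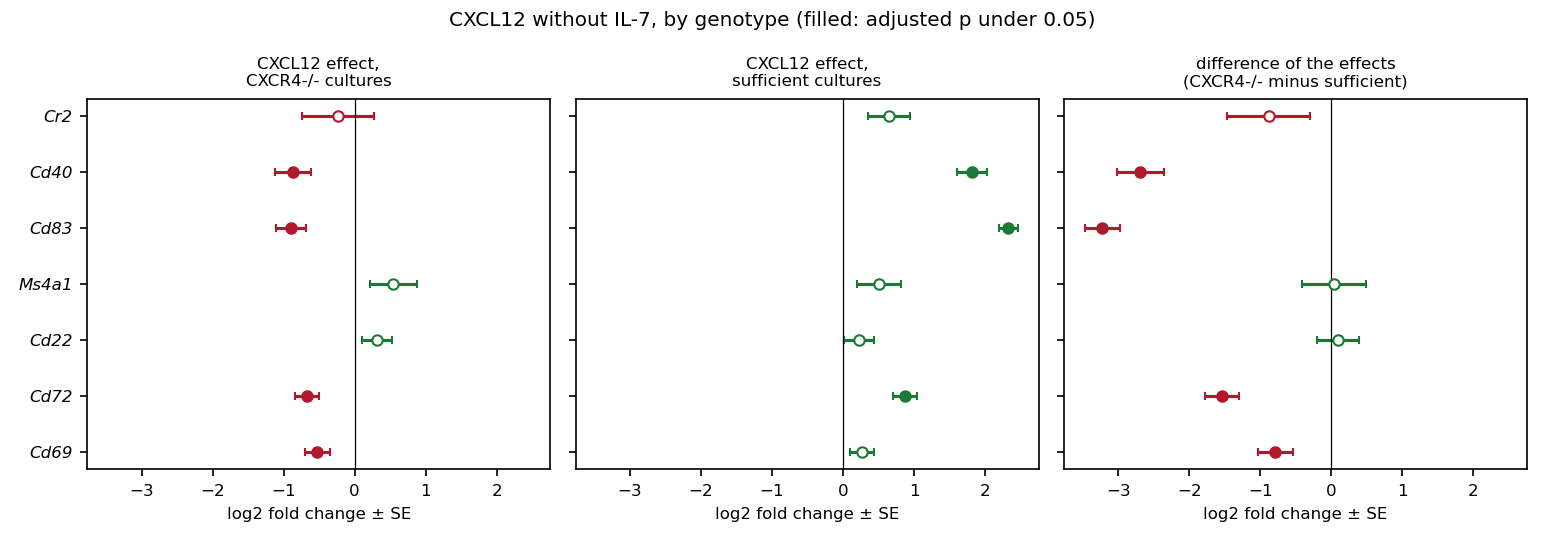
Log2 effect of CXCL12 without IL-7 (± SE) in CXCR4-/- and in CXCR4-sufficient cultures, and the difference of the effects, for the 7 receptors with an estimate in each; filled symbols passed at an adjusted p under 0.05. Cd83, Cd40 and Cd72 lie left of 0 in CXCR4-/- cultures and right of 0 in sufficient cultures, and their differences are -3.23, -2.69 and -1.54.

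The same difference was counted over the pathway lists. Of 20 CD40 and NF-kB signalling genes 0 had a higher and 8 a lower effect of CXCL12 in CXCR4-/- cultures, with Relb at -2.59, Nfkbia at -1.84, Nfkb2 at -1.62 and Nfkbie at -1.61. Other mature B cell surface genes gave 1 higher and 8 lower of 21, with Faim3 at -2.53, Ccr7 at -1.53 and Ighd at -1.07, and Cxcr5 at 1.71. Activation and costimulation genes gave 2 higher and 6 lower of 20 (Il21r -2.18), inhibitory receptors and phosphatases 3 and 5 of 16 (Fcrla -1.42), and antigen receptor signalling genes 4 and 6 of 20 (Pik3cd 0.89, Bcl10 -0.67). Stress genes gave 0 higher and 5 lower of 10. Stromal and myeloid markers gave 0 calls, at sums of 1.31 to 2.21 and 11.7 to 12.8 CPM in CXCR4-/- cultures with CXCL12, and 0.536 to 1.18 and 14.2 to 18.2 CPM in those without it. At such low levels a difference of effects could hardly be called. In CXCR4-sufficient cultures the stromal sum was 2044 to 2058 CPM with CXCL12 against 898 to 915 CPM without it. The myeloid sum there was 800 to 806 against 320 to 322 CPM. The part of such cells in the differences by genotype was not tested.

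**Figure D4:**
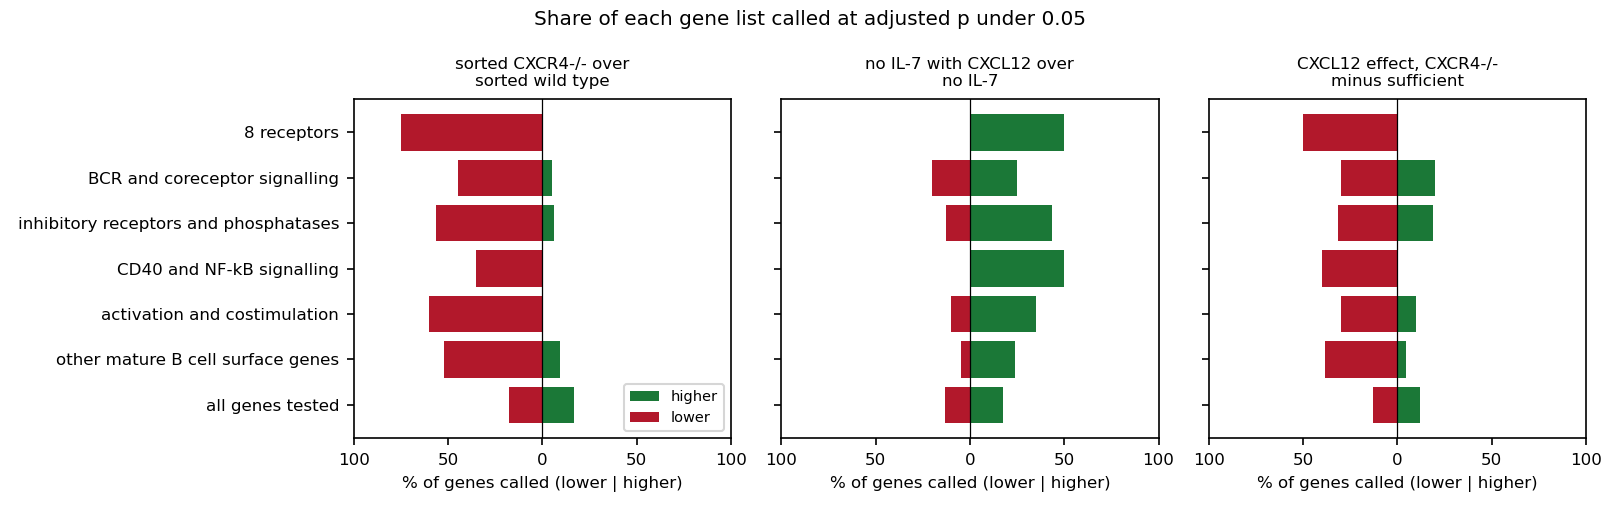
Percent of the members of each list called lower (left of 0) or higher (right of 0) in 3 comparisons, for the 8 receptors, 5 pathway lists and all 14862 genes tested. The 8 receptors were called lower in sorted CXCR4-/- cells for 6 of 8, higher with CXCL12 for 4 of 8, and lower in the difference by genotype for 4 of 8; Fcer2a counts there as not called.

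CXCR4-/- cultures were also set against the CXCR4-sufficient cultures of the same medium, across sets of libraries. With CXCL12 all 8 receptors were lower in CXCR4-/- cultures, where 63.0% of all genes tested passed the test, 27.3% higher and 35.7% lower. Cd83 had 0.542 and 0.602 CPM in CXCR4-/- cultures against 27.5 and 26.9 CPM in CXCR4-sufficient ones (log2 change -5.56 ± 0.18, adjusted p = 5.3e-10). Cd40 (-3.19), Cr2 (-3.04), Ms4a1 (-2.19), Cd72 (-2.01), Cd69 (-1.77) and Cd22 (-1.43) followed. Fcer2a had 0 counts in CXCR4-/- cultures against 0.998 and 1.27 CPM, and taking 3 counts over the group as the floor it was at least 15.9-fold lower. The median of the 8, with Fcer2a at this bound, was -2.62, against -0.14 over all genes. Without CXCL12, 0 receptors were higher and 7 lower, where 65.6% of all genes passed the test, 31.0% higher and 34.6% lower. Cd83 (-2.34), Ms4a1 (-2.23), Cr2 (-2.16), Cd22 (-1.52), Cd69 (-0.98) and Cd72 (-0.48) were lower, and Fcer2a was at least 5.61-fold lower on the same kind of floor. Cd40 (-0.50 ± 0.23, adjusted p = 0.066) did not pass, but it did without CXCR4-/- replicate 1 (-1.10) and with library totals, DESeq2 and the replicate block. The Cd72 call ended without CXCR4-/- replicate 2 (-0.17, adjusted p = 0.099), without either CXCR4-sufficient library (adjusted p = 0.079 and 0.08), with close pairs summed (adjusted p = 0.096) and with these groups fitted alone (adjusted p = 0.3), where the Cd69 call ended too (adjusted p = 0.078), and Cd72 stood at -0.94 without CXCR4-/- replicate 1. These cultures differed across the lists too. With CXCL12, 0 of 20 CD40 and NF-kB genes were higher and 14 lower, and 2 of 21 other mature B cell surface genes were higher and 19 lower. Myeloid markers gave 0 higher and 18 lower of 18 and stromal markers 0 and 10 of 11. The receptor differences therefore cannot be told apart from the makeup of the cultures.

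Cultures with ERK inhibitor II and CXCL12 without IL-7 were compared first with their neighbours of the Gapdh-high set, cultures with IL-7 and CXCL12, which differ in both IL-7 and the inhibitor. ERK inhibitor II blocks a kinase of the MAP kinase pathway. Ms4a1, Cd22 and Cd83 fell and no receptor rose, 3 of 8 where 11.0% of all genes tested passed the test, 6.50% higher and 4.54% lower, and the median of the 8 was -0.75 against -0.01 over all genes. Ms4a1 had 30.7 and 28.7 CPM with the inhibitor against 99.2 and 98.4 CPM with IL-7 and CXCL12 (log2 change -1.73 ± 0.32, adjusted p = 0.0041). Cd22 had 38.6 and 42.4 CPM against 93.7 and 85.9 CPM with IL-7 and CXCL12 (-1.15 ± 0.21, adjusted p = 0.0038). The transcripts of CD20 and CD22 were thus lower in each inhibitor library than in either library with both factors. Cd83 had 9.03 and 9.15 CPM with the inhibitor against 14.2 and 14.2 CPM with both factors (-0.64 ± 0.13, adjusted p = 0.0061). The Cd83 call ended without either inhibitor library, that of Cd22 without inhibitor replicate 1 and that of Ms4a1 without inhibitor replicate 2 (adjusted p = 0.051 to 0.065).

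Cr2 (0.396 and 0.285 CPM with the inhibitor against 0.757 and 0.489 CPM with both factors) and Fcer2a (0.264 and 0.183 against 0.482 and 0.723 CPM) did not pass, at log2 changes of -0.87 ± 0.36 and -1.43 ± 0.45. Cd40 (-0.15 ± 0.22), Cd72 (0.26 ± 0.17) and Cd69 (-0.10 ± 0.17) did not pass either. Among the lists, Cd84 (1.05) rose, with 2 higher and 0 lower of 20 activation genes, 0 and 2 of 20 antigen receptor signalling genes, 1 and 0 of 20 NF-kB genes, 2 and 1 of 16 inhibitory genes and 2 and 1 of 21 other surface genes. Myeloid markers gave 6 higher and 0 lower of 18, with sums of 3576 to 3652 CPM with the inhibitor against 1935 to 2099 CPM with both factors. Stromal markers gave 8 and 0 of 11, with sums of 47.4 to 51.6 against 13.3 to 14.1 CPM with both factors.

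Against cultures without IL-7 with CXCL12, which lie in another set, all 8 receptors were lower with the inhibitor, by -1.58 for Cd83 to -2.91 for Cr2 on the log2 scale, where 56.9% of all genes tested passed the test, 26.9% higher and 30.0% lower. There 9 T cell markers of 11 were higher and 0 lower, with 8 and 1 of 9 for NK cells, myeloid markers 13 and 0 of 18 and stromal markers 0 and 9 of 11. Set against cultures with IL-7 alone, again across sets, cultures with IL-7 and CXCL12 had 2 receptors higher and 4 lower, where 31.8% of all genes passed the test, 15.3% higher and 16.5% lower. Cd83 (2.03 ± 0.13) and Fcer2a (1.69 ± 0.47) were higher, and Cr2 (-1.25 ± 0.32), Cd22 (-0.65 ± 0.21), Cd69 (-0.57 ± 0.17) and Cd72 (-0.50 ± 0.17) lower. Cd83 was thus higher in the CXCL12 group of both pairs of CXCR4-sufficient cultures. Cd72 was higher in the pair without IL-7 and lower in the pair with it. The pair with IL-7 lies across sets, so CXCL12 cannot be told apart from the set there. The calls of Cd22, Cd72 and Cd69 in the pair with IL-7 ended without any 1 of the 4 libraries. That of Fcer2a ended without replicate 2 with both factors or replicate 1 with IL-7 (adjusted p = 0.14 each), and that of Cr2 without replicate 2 of either group (adjusted p = 0.092 and 0.062). Of the 11 T cell markers 8 were higher and 1 lower in this pair, with 8 and 0 of 9 for NK cells, myeloid markers 16 and 0 of 18 and stromal markers 0 and 10 of 11. Gapdh, Xist, Ddx3y and these markers moved with each difference across sets. Neither the inhibitor nor CXCL12 in the presence of IL-7 can be told apart from them.

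Sorted wild-type small pre-B cells were placed beside the cultures without IL-7 with CXCL12, across sets, to show how the receptors stood in cells from the animal. Fcer2a (4.10), Cr2 (2.16), Cd40 (1.91), Ms4a1 (1.46) and Cd72 (0.53) were higher on the log2 scale in sorted cells, and Cd83 (-1.30) and Cd69 (-0.81) lower, 5 and 2 of 8 where 51.4% of all genes tested passed the test, 23.8% higher and 27.6% lower. Cd22 (0.52, adjusted p = 0.054) did not pass, but it did under 5 alternatives (adjusted p up to 0.044), while that of Cd72 was lost with each of the 4 libraries left out (adjusted p = 0.06 to 0.085) and with close pairs summed (adjusted p = 0.11). Of the 9 plasma cell markers 8 were higher and 0 lower, as were 8 and 0 of 9 for NK cells, myeloid markers 12 and 3 of 18 and stromal markers 1 and 9 of 11. Cd83 and Cd69, the members lower in sorted cells, were those that stood highest in these cultures among all groups.

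Over all 12 comparisons, which share libraries, Cd83 was called in each, 4 times higher and 8 times lower, and Cd22 in 5, never higher. Ms4a1 was called higher once and lower 5 times. The levels of the 8 genes were then compared over the 18 libraries as log2 CPM, as a description in which libraries share groups and sets. Cr2 followed the mean of the other members most closely (Pearson r = 0.93), then Fcer2a (0.86), Cd40 (0.85) and Cd22 (0.84), and Cd83 least (0.55). Within the 14 culture libraries Cd83 reached 0.68 and Cd72 0.57. Of 9067 other genes with a mean log2 CPM of at least 3, the 8 most like the members' mean over the 18 libraries were Btla (0.98), Nfkbiz (0.96), Fcrl1 (0.96), 2310035C23Rik (0.95), Itpr2 (0.95), Tor1aip1 (0.95), Dennd1c (0.95) and Rnase6 (0.95). Btla, an inhibitory receptor of the CD28 family, averaged 20.6 CPM in sorted CXCR4-/- cells against 94.6 CPM in sorted wild type, and 5.07 CPM in CXCR4-/- cultures with CXCL12 against 39.3 CPM in CXCR4-sufficient ones. Over the 14 culture libraries alone the r of these 8 genes lay between 0.92 and 0.99. Those libraries are among the 18 used to pick the genes, so this range is no separate check.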

How the data were processed

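RNA-seq of 18 mouse B-lineage libraries was analysed from a single deposited table of raw counts (23762 gene symbols). Per the labels' protocols the libraries were polyadenylated and stranded, and per the submitters' processing notes STAR, featureCounts, BWA, Picard, bedtools and MACS2 were used with mm9. The sources used here give no versions, annotation or strand setting, so counts of overlapping and antisense genes are uncertain. The table had 0 columns that belong to no sample. The 8 ATAC-seq peak lists were not used here.

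The members and the gene lists were chosen with earlier results of these data known. Members were taken by name; other genes named were Cxcr4, up to 4 of each list with the smallest p, and the 8 most correlated with the members' mean. The levels of Gapdh, Cd79a, Itgax and Btla were added after the values were seen.

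One edgeR 4.0.16 model (R 4.3.3) of all 18 libraries, with TMM scaling, the default filter and the robust quasi-likelihood test, covered 14862 genes and 12 comparisons. Calls were made at a Benjamini-Hochberg adjusted p under 0.05 per comparison, and SE is the log2 change over the square root of F. Floors are 3 counts over the group and cover counting error only. Depth, 17257914 to 50235192 counts, sets the precision. The fit was checked on simulated counts. Alternatives were RLE, DESeq2 1.42.0, 2 other filters, only the groups compared, a replicate block, the Gapdh-high libraries left out and each library left out, and, added later, library totals and close pairs summed. Figures used Python 3.11.15 and matplotlib 3.10.9.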

Additional observations from a re-analysis of the deposited data

Results flagged for a closer look

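The effect of CXCL12 without IL-7 differed between CXCR4-/- and CXCR4-sufficient cultures for 4 receptors, by edgeR's quasi-likelihood test of the difference itself over all genes (n = 2 libraries per group). The difference, CXCR4-/- minus CXCR4-sufficient, was -3.23 for Cd83 (adjusted p = 3.9e-06), -2.69 for Cd40 (adjusted p = 0.00014), -1.54 for Cd72 (adjusted p = 0.00082) and -0.79 for Cd69 (adjusted p = 0.033) on the log2 scale. The Cd69 difference no longer passed without the Gapdh-high set (adjusted p = 0.094), with these groups fitted alone (0.17), with close pairs summed (0.18) and without 6 of the 8 libraries in turn, and it was -0.38 without CXCR4-/- replicate 1 without CXCL12. Cultures of each genotype lay in a different set, and the makeup of the sets cannot be told apart from genotype in these differences. Groups of 2 libraries are too small for a test of single libraries that stand apart. The replicates of the CXCR4-/- cultures without CXCL12 lay further apart than those of any other group, with Cd72 at 323 and 199 CPM, and the part of this spread in the differences was not tested beyond leaving each library out.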

How the results depend on the processing

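With only the groups compared, the number of receptors called was 6 (against 3) for IL-7 withdrawal, 8 (against 4) for CXCL12 without IL-7, 5 (against 3) for the ERK inhibitor against both factors, 0 (against 4) for CXCL12 in CXCR4-/- cultures and 4 (against 7) for CXCR4-/- against CXCR4-sufficient cultures without IL-7. CXCL12 in CXCR4-/- cultures gave 0 calls without the 4 Gapdh-high libraries, 2 with library totals and 0 with close pairs summed. Summing close pairs also gave 1 for IL-7 withdrawal, 2 for CXCL12 without IL-7 and 3 (against 6) for both factors against IL-7. With each library left out, the counts were 6 to 7 in sorted cells, 1 to 2 for IL-7 withdrawal, 3 to 4 for CXCL12 without IL-7, 5 to 5 for CXCL12 without IL-7 against IL-7, 1 to 3 for both factors against IL-7 and 1 to 3 for the inhibitor against both factors. They were 8 to 8 for the inhibitor against CXCL12, 0 to 4 for CXCL12 in CXCR4-/- cultures, 6 to 8 for CXCR4-/- cultures without IL-7, 8 to 8 for those with CXCL12, 3 to 4 for the difference by genotype and 6 to 6 for sorted wild type against culture. A group left with 1 library is assumed to vary like the others. The share of all genes called under each alternative is not given here, so these counts describe the receptors alone.

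Signs reversed for estimates that had not passed. Ms4a1, for CXCL12 without IL-7 against IL-7, was -0.12 with only those groups (adjusted p = 0.019), -0.11 without the Gapdh-high libraries and -0.053 to 0.052 with a library left out. For both factors against IL-7, library totals gave -0.082 for Cd40 and -0.082 for Ms4a1, and Cd40 was -0.075 to 0.18 with a library left out. Leaving out a library also gave -0.41 to 0.018 for Cr2 with CXCL12 in CXCR4-/- cultures, and -0.038 to 0.23 for Ms4a1 and -0.058 to 0.40 for Cd22 in the difference by genotype. Of 1199 values of single receptors under the alternatives, 1065 kept direction and side of the threshold, 93 lost the call, 28 gained one and 13 changed sign. The median of all genes for CXCR4-/- cultures without IL-7 was -0.32 with library totals, against -0.13. The cause of these changes was not tested.

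With replicate number as a block, 4 receptors were called for IL-7 withdrawal, 5 for CXCL12 without IL-7 against IL-7, 8 for CXCR4-/- cultures without IL-7 and 8 for sorted wild type against culture, and the other counts were those without the block. Each comparison has 2 pairs, whose deviations correlated at -0.07 to 0.21. Where replicates differ by little more than sampling noise, a low correlation cannot show that pairs are absent. Whether equal numbers mark paired samples is not labelled. Depth limits Fcer2a and Cr2 most, with 17 to 68 Fcer2a counts per group in the CXCR4-sufficient cultures. It also limits Cd83 in CXCR4-/- cultures, with 47 counts without CXCL12 and 24 with it.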
